A study of Rattus norvegicus with 9 samples.

Results

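S100a4, Krt8 and Cnn1 are 3 genes that mark mesenchymal, epithelial and smooth muscle states, followed here over 9 RNA-seq libraries of RN46A cells. They were picked by name from the authors' lists of genes that differ between VPA and control cells, 3 of the 32662 genes in the count table. The counted level and the authors' p-values of that comparison thus chose them, so their VPA against control values are a description and carry no test. By p, the authors' deposited DESeq2 table ranks S100a4 49th, Krt8 198th and Cnn1 367th among 1212 genes, all inside its limit of an adjusted p of 0.05.

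RN46A is a rat cell line that the labels call serotonergic. Cells were held at 33 °C with 5% fetal bovine serum. They were then differentiated for 72 h at 39 °C with 1% serum on plates coated with collagen and fibronectin, which all groups share. The next 72 h were spent with 0.5 mM VPA (sodium valproate, a mood stabiliser that inhibits histone deacetylases), with 0.5 mM lithium (a mood stabiliser that inhibits glycogen synthase kinase 3), or as controls. Each group had 3 libraries of polyadenylated RNA, with 9658054 to 12243806 counted reads under VPA, 11207844 to 13030300 under lithium and 9580591 to 11555704 in control. RN46A is a single line, and the labels do not state whether replicates were cultured separately. The spread behind each p-value is therefore one between libraries, and it may be purely technical.

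Cells of mesenchymal and epithelial character differ in their cytoskeleton and in how they hold to each other. S100a4, also called fibroblast-specific protein, is a small calcium-binding protein that binds nonmuscle myosin and is abundant in fibroblasts and motile cells. Krt8 is a type II keratin that pairs with Krt18 in the filaments of simple epithelia. Cnn1 is a calponin that binds actin in smooth muscle and inhibits myosin's ATPase; it is a late marker of the contractile state.

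The 300 bases around each annotated transcription start (250 before, 50 after) are shown because these genes differed in opposite directions at the RNA level. They are RefSeq sequences of build GRCr8, and all 3 genes had one. S100a4 lies on the plus strand at chr2:178388279-178388578, Cnn1 on the plus strand at chr8:28908187-28908486 and Krt8 on the minus strand at chr7:135010290-135010589. Capitals mark TATAAA on either strand and TGANTCA, a palindromic AP-1 motif.
S100a4: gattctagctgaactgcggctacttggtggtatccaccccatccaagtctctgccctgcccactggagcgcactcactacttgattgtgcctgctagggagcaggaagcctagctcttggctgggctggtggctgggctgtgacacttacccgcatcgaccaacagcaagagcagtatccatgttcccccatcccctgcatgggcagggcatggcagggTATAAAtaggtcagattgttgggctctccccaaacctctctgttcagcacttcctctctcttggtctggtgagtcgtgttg
Krt8: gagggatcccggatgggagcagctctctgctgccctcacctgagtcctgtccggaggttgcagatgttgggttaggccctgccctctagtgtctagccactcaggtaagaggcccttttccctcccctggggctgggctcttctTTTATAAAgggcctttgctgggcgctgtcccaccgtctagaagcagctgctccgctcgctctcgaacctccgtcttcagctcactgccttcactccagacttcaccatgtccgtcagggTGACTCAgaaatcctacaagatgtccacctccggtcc
Cnn1: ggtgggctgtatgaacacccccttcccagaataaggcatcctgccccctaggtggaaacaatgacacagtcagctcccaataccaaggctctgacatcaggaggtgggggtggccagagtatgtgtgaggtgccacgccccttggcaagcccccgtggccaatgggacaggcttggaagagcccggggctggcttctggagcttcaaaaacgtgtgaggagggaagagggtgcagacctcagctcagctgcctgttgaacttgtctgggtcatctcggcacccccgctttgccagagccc
S100a4 holds TATAAA once, at -31 to -26 from the start. Krt8 holds it on both strands in overlap, at -106 to -101 and -104 to -99, and holds TGANTCA at 14 to 20 after the start. In Krt8 the bases directly after the annotated start read atg, the letters of a start codon. That start may thus be one of translation, with TGANTCA in coding sequence. The Krt8 positions may then not compare with those of S100a4. Cnn1 holds neither. GGGCGG, the core of the GC box, and the CArG box bound by serum response factor were searched on both strands and are in none of the 3 windows. Of 33469 promoters of this length, 14.2% hold TATAAA, 7.33% TGANTCA, 33.1% GGGCGG and 1.64% a CArG box. These matches describe letters and say nothing of which factor binds. No reading of the start regions was made in this study, so a link to the RNA levels was not tested.

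S100a4, the mesenchymal member, was at 383, 662 and 418 CPM (counts scaled to library size with TMM factors) in VPA libraries 1, 2 and 3. It was at 2460, 1078 and 1458 CPM in the lithium libraries, and at 1780, 3426 and 1453 CPM in the controls. All 3 VPA libraries lay below every lithium and control library, while lithium and control overlapped. The means were 488 ± 152 CPM with VPA, 1665 ± 714 CPM with lithium and 2219 ± 1057 CPM in control (SD, n = 3 each). Ranked by counted reads, S100a4 stood between 168th and 352nd with VPA, between 23rd and 68th with lithium and between 16th and 53rd in control. It took 0.0405 to 0.0640% of all counted reads with VPA, against 0.141 to 0.329% in control.

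Krt8, the epithelial keratin, was far less abundant. It had 3.43, 4.18 and 2.17 CPM in VPA libraries 1, 2 and 3, then 11.2, 7.11 and 8.01 CPM with lithium, and 8.35, 12.9 and 11.02 CPM in control. Here too every VPA library was lower than any other library, and lithium and control overlapped. The means were 3.26 ± 1.02 CPM with VPA, 8.77 ± 2.15 CPM with lithium and 10.8 ± 2.30 CPM in control (SD, n = 3 each). These levels rest on 110, 315 and 335 reads in all, in the same order.

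Cnn1, the smooth muscle calponin, differed the other way. It had 2.42, 3.86 and 3.86 CPM in VPA libraries 1, 2 and 3, then 0.603, 0.526 and 0.848 CPM with lithium, and 0.635, 0.543 and 0.800 CPM in control. The VPA libraries were all higher than the rest, and lithium and control lay over the same narrow range. The means were 3.38 ± 0.83 CPM with VPA, 0.659 ± 0.168 CPM with lithium and 0.659 ± 0.130 CPM in control (SD, n = 3 each). Cnn1 was close to the floor of the assay outside VPA: the libraries held 31, 36 and 48 reads with VPA, 7, 6 and 11 with lithium, and 7, 5 and 9 in control.

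**Figure D1:**
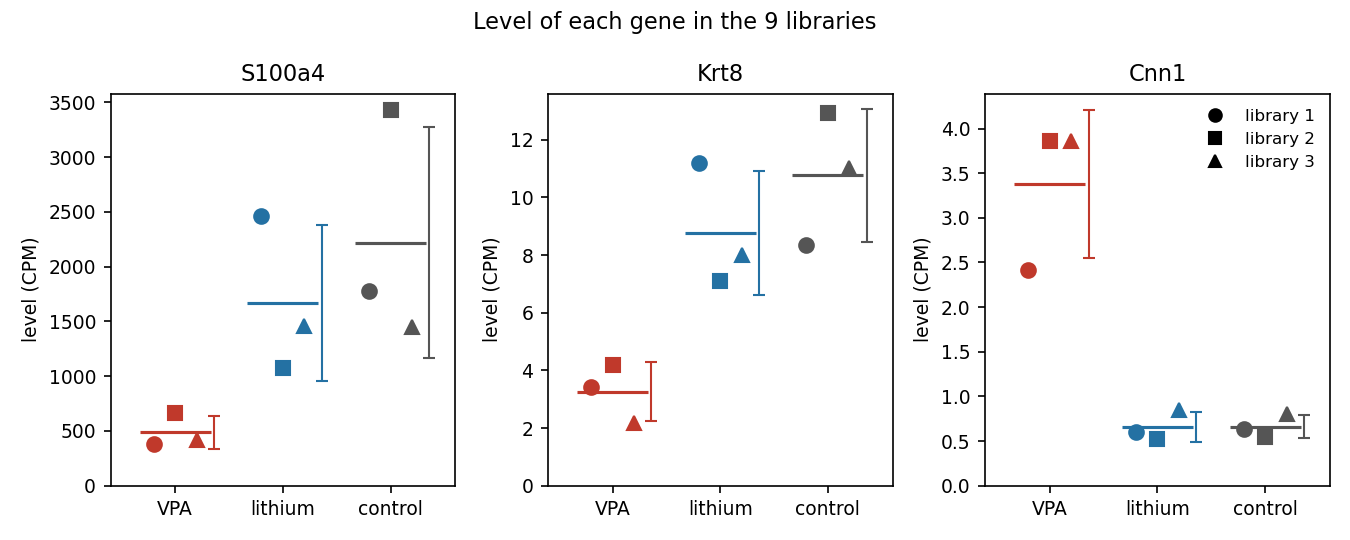
Level of S100a4, Krt8 and Cnn1 in CPM for each library, by group (VPA, lithium, control), with marker shapes for library numbers, a line at the mean and a bar of 1 SD beside it (n = 3). S100a4 and Krt8 are lowest and Cnn1 is highest in the 3 VPA libraries, and lithium and control overlap in all 3 panels.

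Set against control, the fitted log2 fold change with VPA was -2.19 ± 0.39 for S100a4, -1.73 ± 0.30 for Krt8 and 2.32 ± 0.36 for Cnn1 (SE, 9 libraries in the fit). Their levels with VPA were thus 0.220, 0.302 and 5.00 times those in control. For Cnn1 the ratio of summed reads, 115 with VPA against 21 in control, was 4.98 after scaling to library size, with a 95% interval of 3.11 to 8.36 that covers counting error only. In this comparison 8.7% of the 12719 genes tested passed an adjusted p under 0.05 in edgeR's quasi-likelihood test, 5.71% as higher and 2.99% as lower. Some 22.3% had an unadjusted p under 0.05, and in 25.5% the 3 VPA libraries did not overlap the 3 controls. All 3 genes are in these shares; they were chosen on this contrast, so nothing is read from that. Without control 2, which had the most S100a4, the log2 change of S100a4 was -1.74.

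The library numbers allow a closer look, since same-numbered VPA and control libraries deviated from their group means together. Within the numbered pairs, S100a4 with VPA was 0.215, 0.193 and 0.288 times its control level. Krt8 with VPA was 0.411, 0.323 and 0.197 times control. Cnn1 with VPA was 3.81, 7.10 and 4.82 times control. With the groups apart, any pairing would give these directions. In both groups library 2 held the most S100a4 and the most Krt8. With the numbers as a block in a fit of VPA and control alone, an alternative chosen after the data were seen, the SE of the change was 0.17 for S100a4, 0.24 for Krt8 and 0.33 for Cnn1. With the block over all 9 libraries it was 0.37, 0.29 and 0.32 for the same genes, against 0.39, 0.30 and 0.36 with no block.

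Lithium against control was not used to choose these genes, though it shares the 3 control libraries with the comparison that did. None of the 3 passed: the log2 change with lithium was -0.41 ± 0.37 for S100a4, -0.29 ± 0.28 for Krt8 and -0.0011 ± 0.42 for Cnn1 (SE; edgeR adjusted p = 1 for each). No gene of the 12719 was called by edgeR (0%), nor by DESeq2, and 116 (0.912%) had an unadjusted p under 0.05 in edgeR (113 in DESeq2). The libraries of lithium and control did not overlap in 3.28% of genes (1.71% higher, 1.57% lower), and none of the 3 was among them. The 95% intervals of the change with lithium ran from -1.23 to 0.40 for S100a4, from -0.90 to 0.32 for Krt8 and from -0.92 to 0.92 for Cnn1. They allow S100a4 to be from 0.425 to 1.32 times its control level with lithium. A call was missed, which does not show that these genes were alike with and without lithium. The authors' own lithium table lists 137 genes by unadjusted p, the largest being 0.0499 in their DESeq2 test. It holds 0 of the 3.

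For S100a4 the lithium value leans on single libraries. Lithium 1 and control 2 were the highest libraries of their groups. Without control 2 the change was 0.03 and without lithium 1 it was -0.82, neither called (adjusted p = 0.999 and 1.00, edgeR). The ratio of summed Krt8 reads, 315 with lithium against 335 in control, was 0.823 after scaling to library size, with a counting interval of 0.703 to 0.962. That interval leaves out the spread between libraries, which the fitted change above includes.

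VPA against lithium uses the VPA libraries that helped choose the genes, so it adds no independent support. The log2 change with VPA relative to lithium was -1.77 ± 0.39 for S100a4, -1.44 ± 0.30 for Krt8 and 2.32 ± 0.36 for Cnn1 (SE). Both contrasts of VPA thus gave S100a4 and Krt8 as lower and Cnn1 as higher. All 3 were called, where 7.93% of tested genes were (5.61% higher, 2.32% lower). All 3 also had VPA libraries apart from the lithium ones, as 29.2% of genes did. S100a4 was no longer called without VPA 1, VPA 3 or lithium 1 (adjusted p = 0.0647, 0.0695 and 0.0635 in edgeR's test), and Krt8 was not without lithium 1 (edgeR adjusted p = 0.0577). Cnn1 was called in every fit that left out 1 library.

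**Figure D2:**
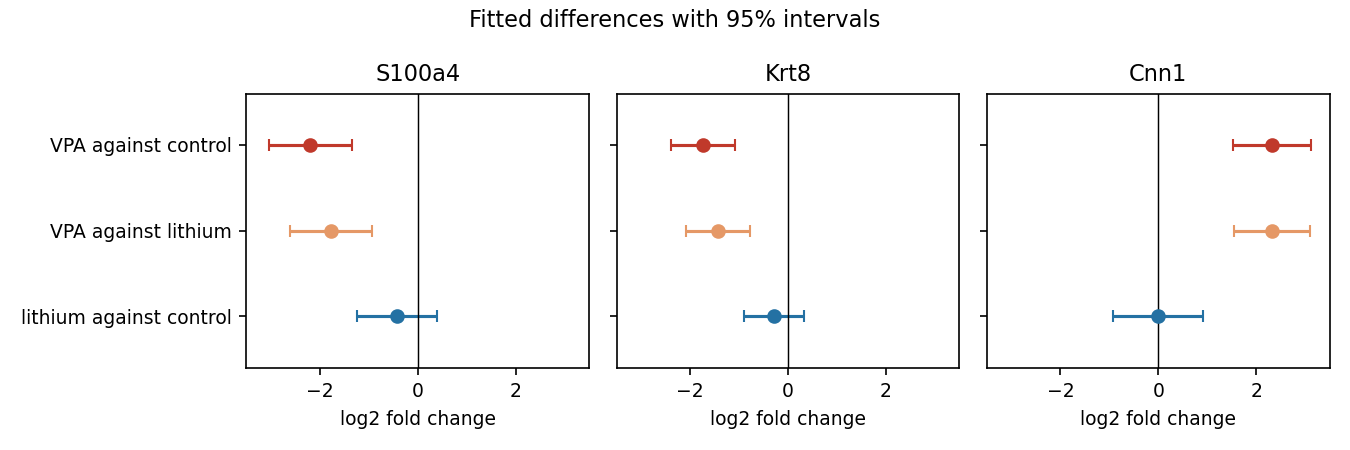
Fitted log2 fold changes of S100a4, Krt8 and Cnn1 with 95% intervals for VPA against control, VPA against lithium and lithium against control, with a line at 0 for no difference. The intervals of both VPA comparisons stay on one side of 0, those of lithium against control span 0; the VPA libraries took part in choosing the genes.

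The authors' other quantifications give the size of the same contrast on their own scales. In the authors' deposited DESeq2 table the log2 changes with VPA, rounded there to 1 decimal, were -1.9 for S100a4, -1.5 for Krt8 and 1.5 for Cnn1. Turned to VPA over control, the authors' deposited Cufflinks table gives -2.25, -1.69 and 2.26 for the same genes. The authors' deposited Salmon and sleuth table lists 1 transcript of each gene, with effects of -1.48 ± 0.32 for S100a4, -1.21 ± 0.21 for Krt8 and 1.56 ± 0.41 for Cnn1 on a natural log scale. On the log2 scale those are -2.13, -1.75 and 2.26. The DESeq2 values are the smallest for all 3 genes.

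Per length, the authors' deposited Cufflinks table puts S100a4 at 1018 FPKM with VPA and 4825 FPKM in control. That was the highest control value among the 1097 genes it lists, and the 7th highest with VPA. Krt8 was at 2.10 FPKM with VPA and 6.79 FPKM in control, and Cnn1 at 2.11 FPKM with VPA and 0.440 FPKM in control. By these values Krt8 and Cnn1 were about level under VPA, where Krt8 was the higher in control; no error is given, so this is a description.

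S100a4 stands in a cluster of S100 genes, and the listed neighbours were lower too. The authors' deposited Cufflinks table places S100a4 on chromosome 2 from 189997128 to 189999604, in a build that is not given in the sources used here. On the same chromosome it lists S100a16, S100a3 and S100a6. S100a3 ends 1099 bases before S100a4 begins, and S100a6 begins 7611 bases after it ends. S100a6, a calcium-binding calcyclin, was at 2278 FPKM with VPA and 4757 FPKM in control. S100a3 was at 16.8 FPKM with VPA and 29.5 FPKM in control, and S100a16 at 1.19 FPKM with VPA and 4.20 FPKM in control. The ratio of VPA to control was thus 0.211 for S100a4, 0.282 for S100a16, 0.479 for S100a6 and 0.570 for S100a3. Sequencing was unstranded, so reads from genes that overlap cannot be told apart by strand. By the coordinates listed, S100a16, S100a3, S100a4 and S100a6 do not overlap one another. This table was chosen by p on the same contrast, so S100 genes outside it were not analysed here by name.

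Of 19 S100 genes, 3 had a name paired with an identifier and enough counts, and all 3 fell with VPA, where 2.99% of all tested genes did. The names come from tables the authors filled by p on this contrast or, for their lithium table, by p on lithium against control. This and the list counts that follow are thus no independent evidence of direction, with VPA or with lithium. S100b, a glial family member on chromosome 20, averaged 1.63 ± 0.208 CPM with VPA and 3.99 ± 0.66 CPM in control. S100a16 averaged 1.26 ± 0.396 CPM with VPA and 4.36 ± 0.696 CPM in control. The call on S100b depended on VPA 1, 2 and 3 and on control 1 and 3, each of which ended it when left out (adjusted p = 0.0506 to 0.0738, edgeR), and S100a16 kept its call in every fit without 1 library. With lithium, 0 of the 3 were called.

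**Figure D3:**
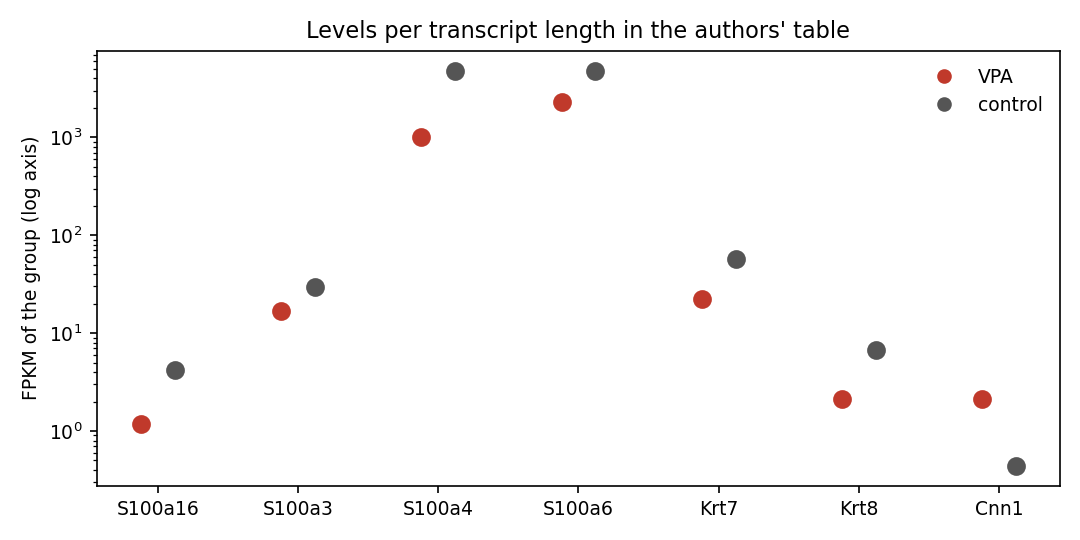
Level in FPKM on a log axis in VPA and in control, 1 value per group as the authors' Cufflinks table gives it, for 4 S100 genes of chromosome 2 and for Krt7, Krt8 and Cnn1. S100a4 and S100a6 are the most abundant, and of these 7 genes Cnn1 is higher with VPA while the rest are lower.

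Keratins listed with Krt8 were lower with VPA as well. Of 14 simple epithelial keratins and their junction partners, 5 had a name and enough counts: 4 were called lower with VPA, 0 higher and 1 missed the threshold (2.99% of all tested genes fell and 5.71% rose). Krt7, the type II keratin of ducts and glands, averaged 39.9 ± 8.84 CPM with VPA and 96.7 ± 39.5 CPM in control, and exceeded Krt8 per length too (22.1 FPKM with VPA and 57.0 FPKM in control). The basal keratin Krt15 averaged 0.291 ± 0.044 CPM with VPA and 1.42 ± 0.424 CPM in control. Periplakin, Ppl, which links keratins to junctions, averaged 151 ± 21.9 CPM with VPA and 276 ± 73.2 CPM in control. The desmosome's desmoplakin, Dsp, did not pass, at 135 ± 24.8 CPM with VPA and 71.7 ± 28.1 CPM in control, a log2 change of 0.91 ± 0.32, but rose with the replicate numbers as a block (edgeR adjusted p = 0.0311). Leaving out 1 library left 1 to 4 falls in this list, Krt8 among them each time. Krt7 was no longer called when VPA 1, VPA 3 or control 3 was left out (adjusted p = 0.0917, 0.0666 and 0.0659, edgeR). Krt15 and Ppl were not called without any 1 of the VPA libraries or without control 3, nor Krt15 without control 2 or Ppl without control 1 (edgeR adjusted p = 0.0644 to 0.108). Krt18, the partner of Krt8, has no name in the tables and was not analysed here.

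Of 32 epithelial adhesion and polarity genes 3 were testable: 2 rose with VPA, as 5.71% of all tested genes did, and 1 was not called. The splicing regulator Esrp1 averaged 3.98 ± 0.92 CPM with VPA and 0.432 ± 0.335 CPM in control, and the tight junction protein Ocln 4.40 ± 1.89 CPM with VPA and 0.451 ± 0.0937 CPM in control. Both rose, and both kept their call in every fit without 1 library. The membrane protease St14 did not pass, with 55.2 ± 12.5 CPM with VPA and 103 ± 43.8 CPM in control, but fell with the block (edgeR adjusted p = 0.00476) and in DESeq2 (adjusted p = 0.0267). Krt8, Krt7, Krt15 and Ppl were thus lower while Esrp1 and Ocln were higher in the same VPA libraries.

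Cnn1 is 1 of 4 contractile genes testable out of 23, of which 2 were called higher with VPA and 1 lower, where 5.71% of all tested genes rose and 2.99% fell. Myl9, the regulatory light chain of smooth muscle myosin, averaged 9.97 ± 3.54 CPM with VPA and 3.76 ± 0.523 CPM in control. The tropomyosin Tpm2 fell, at 8.39 ± 1.05 CPM with VPA and 18.6 ± 3.72 CPM in control. Tpm1 did not pass, at 116 ± 12.9 CPM with VPA and 163 ± 25.3 CPM in control, but fell with the block (edgeR adjusted p = 0.0326). Myl9 was no longer called without VPA 3, control 1 or control 2 (edgeR adjusted p = 0.0695, 0.0665 and 0.0517), nor Tpm2 without VPA 1 (0.0617, edgeR).

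S100a4 is 1 of 12 testable fibroblast and mesenchymal genes of 20, of which 0 rose and 6 fell with VPA, where 2.99% of all tested genes fell; the other 6 did not pass. The collagen chains Col3a1 and Col1a1 and the matrix protein fibronectin, Fn1, were among the falls and kept their calls without any 1 library. The proteoglycans Dcn and Lum fell too, with less stable calls. Dcn was not called without VPA 1, VPA 3 or control 2 or with no filter (edgeR adjusted p = 0.0573, 0.0595, 0.0597 and 0.114), nor Lum without any 1 VPA library, without control 1 or with no filter (edgeR adjusted p = 0.0793 to 0.212). Col3a1 averaged 22.6 ± 5.98 CPM with VPA and 177 ± 93 CPM in control, and Col1a1 50.1 ± 4.79 CPM with VPA and 164 ± 77.6 CPM in control. Fn1 averaged 1483 ± 379 CPM with VPA and 5080 ± 2133 CPM in control. Vimentin, Vim, the usual intermediate filament of mesenchymal cells, did not pass, at 2639 ± 715 CPM with VPA and 4392 ± 686 CPM in control, a log2 change of -0.73 ± 0.24. With the numbers as a block it passed (edgeR adjusted p = 0.0495), as it did with no block in DESeq2 (adjusted p = 0.0121). In each of those fits 10 of the 12 fell. The median log2 change over the 11 besides S100a4 was -1.71, against -0.01 over all 12719 genes, which are not selected by p as the named 11 are. With lithium 0 of the 12 were called, in a comparison that called no gene at all. The median log2 change with lithium over the 11 besides S100a4 was -0.76. Fn1, Col1a1, Col3a1, Dcn, Pdgfra and Lox were lower with lithium at an unadjusted p of 0.00649 to 0.0416 in edgeR's test. Over all genes 0.912% had an unadjusted p under 0.05, in either direction. Names were taken in part from a table filled by p on lithium against control, so these values are a description. VPA against lithium gave 1 higher, 2 lower and 9 not passing, where 5.61% of all tested genes were higher and 2.32% lower. Leaving out 1 library left 1 higher and 1 to 4 lower. The one higher was the growth factor receptor Pdgfra, at 8.21 ± 1.35 CPM with VPA, 3.12 ± 0.654 CPM with lithium and 5.29 ± 1.30 CPM in control; its log2 change with VPA was 1.39 ± 0.27 against lithium (edgeR adjusted p = 0.00941) and 0.63 ± 0.26 against control (0.178, edgeR). Of 11 S100a4 partners and receptors of secreted S100 proteins, only the collagenase Mmp13 and the gelatinase Mmp9 had names. Both are secreted proteases tied to S100a4 in other systems. Both rose with VPA, as 5.71% of all tested genes did. Mmp13 averaged 567 ± 105 CPM with VPA and 90.8 ± 17.2 CPM in control. Mmp9 averaged 2.93 ± 1.33 CPM with VPA and 0.547 ± 0.103 CPM in control, and was not called when VPA 2, VPA 3, control 1 or control 3 was left out (edgeR adjusted p = 0.0545, 0.0742, 0.0661 and 0.0548). Of 12 intermediate filament genes outside the keratins 3 were testable. The neurofilaments Nefm and Nefh rose with VPA, as 5.71% of all tested genes did, and Vim did not pass. Nefm averaged 5.62 ± 0.786 CPM with VPA and 0.886 ± 0.261 CPM in control, and Nefh 27.2 ± 10.9 CPM with VPA and 11.5 ± 3.39 CPM in control; Nefh was not called without VPA 3, control 1 or control 2 (edgeR adjusted p = 0.0997 to 0.136). Of 9 transcription factors of epithelial-mesenchymal transition, 0 had a name.

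**Figure D4:**
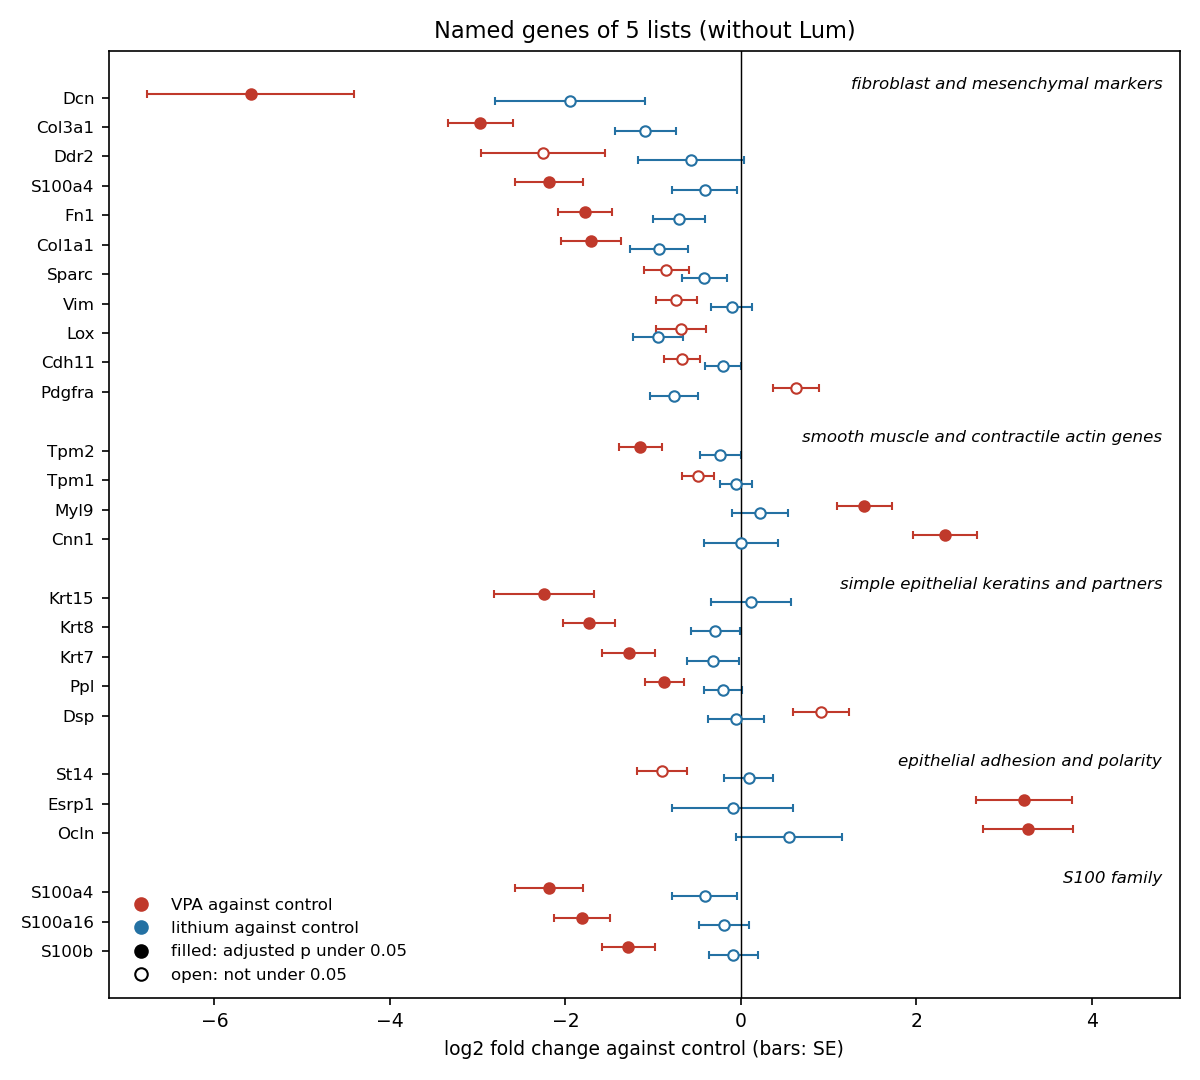
Log2 fold change with VPA and with lithium, each against control, for named genes of 5 lists, with bars of 1 SE; filled points have an adjusted p under 0.05 in edgeR's test. Every lithium point is open; Lum, with 0 reads in all VPA libraries, is left out because its fitted change is no bound.

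Named markers of other states also differed with VPA. Their names come from tables the authors filled by p on VPA against control or, for the lithium table, on lithium against control. The sums below are thus a description and no independent evidence of a shift. Summed over the 11 named fibroblast markers other than S100a4, the level was 4294 to 5378 CPM with VPA, 7620 to 8340 CPM with lithium and 8399 to 12698 CPM in control. Vim, which did not pass, and Fn1 made up most of that sum. Pdgfra had a higher mean with VPA than in control, without a call. Summed over 9 of 15 neuronal markers the level was 175 to 209 CPM with VPA, 52.0 to 67.3 CPM with lithium and 50.3 to 64.1 CPM in control. For 4 of 8 neural crest and Schwann cell markers it was 55.9 to 65.1 CPM with VPA, 14.4 to 15.9 CPM with lithium and 11.1 to 16.9 CPM in control. Ngfr and Erbb3 made up most of that sum; with Sox10 they rose with VPA, and S100b, the remaining 1 of the 4, fell. Krt7 and Esrp1, the named epithelial markers besides Krt8 among 10, summed to 34.9 to 50.3 CPM with VPA, 61.2 to 104 CPM with lithium and 62.6 to 140 CPM in control; that sum follows Krt7, which fell with VPA, while Esrp1 rose. Of the 9 smooth muscle markers Cnn1 alone had a name, and of 11 serotonergic markers only Maob, so the labelled cell type could not be checked further. Maob, which degrades monoamines, was at 6.72 ± 1.53 CPM with VPA, 0.867 ± 0.294 CPM with lithium and 1.10 ± 0.31 CPM in control. Its name too comes from a choice by p on VPA against control, so its higher level with VPA is a description. Lum was at 0 in all VPA libraries. The part of these shifts in the S100a4, Krt8 and Cnn1 results was not tested, and in bulk RNA fewer cells of a type and less RNA per cell cannot be told apart.

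Among 1174 genes with a symbol and a mean of 1 CPM or more, the patterns most like each gene over the 9 libraries were ranked by Pearson's r of log2 CPM. For S100a4 they were Mgst2, a microsomal glutathione transferase (r = 0.989), Psme1-ps1 (0.980) and the mitochondrial translocator protein Tspo (0.978). For Krt8 they were the immediate early response genes Ier5 (0.987) and Ier5l (0.982), and S100a16 (0.975). For Cnn1 they were the endophilin Sh3gl3 (0.996), Spata20 (0.995) and Gfpt2, an enzyme of hexosamine synthesis (0.994). The same libraries underlie every r, the VPA libraries stand apart in S100a4, Krt8 and Cnn1, and Psme1-ps1, a pseudogene by its name, may share reads with its parent gene. With group means removed, a measure chosen after these values were seen, Mgst2 still led for S100a4 (0.963) and Ier5 for Krt8 (0.988), while Wnt10b (0.977) led for Cnn1. On that measure S100a4 and Krt8 had r = 0.71 with each other, S100a4 and Cnn1 0.02, and Krt8 and Cnn1 -0.16. Cnn1 had only 5 to 11 reads per library outside VPA, so counting error weighs on its deviations. Each leading gene is also the top of 1174 over 9 libraries, so a high r is a description.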

How the data were processed

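RNA of 9 RN46A libraries was analysed, grouped and numbered by the labels' titles. The authors deposited raw counts per Ensembl gene; The submitters' processing notes name, without roles, DESeq2, sleuth, Salmon 0.6.1, STAR 2.5.1, Cufflinks 2.2.1, CASAVA 1.8 and kallisto 0.42.4. RNA was polyadenylated and sequenced unstranded, per the labels. The genome build is not given in the sources used here. The table has 0 lines without a gene. Per the file headers, the authors' DESeq2 tables hold log2 changes, p-values and mean normalized counts (a signal), the Cufflinks table FPKM, log2 ratios and p-values, and the sleuth table natural log effects and p-values. The natural log scale of the deposited sleuth values was inferred over 586 transcripts, where their ratio to log2 values of Cufflinks had a median of 0.697. A table titled for kallisto repeats the DESeq2 one and was not used, nor were 6 columns of normalized counts per sample in the lithium table.

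Counts were tested in R 4.3.3 with edgeR 4.0.16, using TMM factors, filterByExpr with a minimum count of 10, and 1 robust quasi-likelihood model holding all 9 libraries with a mean per group. Tests were two-sided, and p-values of 12719 genes were adjusted by Benjamini-Hochberg and called under 0.05. SE is the log2 change over the square root of F. The fit was tested on simulated data. One read was worth 0.0767 to 0.104 CPM by library total. Intervals cover 95%.

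Symbols came from the authors' DESeq2, sleuth and lithium tables (1384 identifiers named). Members and lists were chosen with earlier results of these data known. Besides the 3 genes, those named are up to 4 per list by p for VPA against control, and the 3 genes most like each member (log2 of CPM + 0.5). Cdh11, Dcn, Ddr2, Dsp, Erbb3, Lox, Lum, Maob, Ngfr, Pdgfra, Sox10, Sparc, S100a3, S100a6 and the genes ranked with group means removed were named after their values were seen. The result of 1 gene list is not reported here. Same-numbered VPA and control libraries deviated together (correlations 0.610, 0.530 and 0.526 over 10288 genes), which is where the pairing comes from. Lithium and control did so for library 3 but not for the others (-0.424, -0.080 and 0.807). The same held for VPA and lithium (-0.203, 0.059 and 0.536). Alternatives were DESeq2 1.42.0, median-ratio and total scaling, no filter, the replicate block, only the compared groups, and leaving out each library.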

Additional observations from a re-analysis of the deposited data

How the results depend on the processing

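S100a4, Krt8 and Cnn1 kept their direction and their call for VPA against control under all 16 alternatives, with log2 changes of -2.47 to -1.74, -1.94 to -1.50 and 2.201 to 2.518. Leaving out 1 library at a time gave the ends of each of these ranges. For VPA against lithium their ranges without 1 library were -2.04 to -1.37, -1.63 to -1.21 and 2.19 to 2.55; S100a4 lost its call without VPA 1, VPA 3 or lithium 1 and Krt8 without lithium 1. For lithium against control nothing was called under 15 alternatives (59 to 247 genes at an unadjusted p under 0.05), and adjusted p of the 3 genes ran from 0.999 to 1 in edgeR and DESeq2. Their log2 changes without 1 library were -0.82 to 0.028 for S100a4, -0.52 to -0.16 for Krt8 and -0.23 to 0.16 for Cnn1, and 0.020 for Cnn1 with scaling by totals. In the fit of lithium and control alone Cnn1 had too few counts to be tested. Called genes numbered 1106 for VPA against control and 1009 for VPA against lithium. Without 1 library they numbered 638 to 1026 and 544 to 1197. With the replicate block they numbered 1741 and 1609, and 2408 for VPA against control in the blocked fit of those groups alone, chosen after the data were seen. The block changed no call of the 3 genes. Calls it changed for VPA against control stand beside those genes, and Cdh11, Sparc and Ddr2 also fell with it. Cdh11, Sparc and Ddr2 fell with no block in DESeq2 too (adjusted p = 0.0149 to 0.0290). For VPA against lithium the block added calls on Fn1, Dcn, Lum, Krt7 and St14 as lower and Dsp as higher (edgeR adjusted p = 0.00245 to 0.0292). Levels in CPM moved by less than 1 SD with library totals. Few reads limit Cnn1: 5 to 11 per library outside VPA. The causes of these shifts were not tested.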
